A study of Drosophila melanogaster with 9 samples.

Results

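Removal of the ELAV/Hu gene fne from a larval nervous system that already lacked elav was examined across 9566 genes, out of 17421 in the deposited table. These were all genes with a mean deposited value of at least 16 over the 3 elav5/fne and 3 elav5 libraries, and 13680 genes had at least 1 read in those 6 libraries. At the edge of this filter, Ilp3, lncRNA:CR45426 and snoRNA:Psi18S-525c lay just inside with mean deposited values of 16.03, 16.04 and 16.07, and CG10026, asRNA:CR44228 and asp lay just outside with 15.97, 15.999 and 15.9997. The tissue was the central nervous system dissected from Drosophila melanogaster larvae of the 1st instar, and reads from transcript 3' ends had been summed to 1 value per gene, so different 3' ends of a gene were not resolved. elav5/fne larvae carried deletion alleles of both elav and fne. elav5 larvae carried the same kind of allele of elav alone, so both mutant groups lacked elav. Canton-S, a common wild-type strain with 3 libraries, is given for context. All larvae were homozygous, viable, raised at 25 °C and picked by eye with a visible marker. Not given in the sources used here were the number of animals pooled, their sex and whether the strains share a genetic background. Larvae lacking fne alone were not analysed here.

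ELAV/Hu proteins are RNA-binding proteins of neurons, known from flies to mammals. In Drosophila the family has the members elav, fne and Rbp9. ELAV is known to act in the nucleus on alternative splicing and on the choice of the 3' end, which gives many neural transcripts longer 3' UTRs, and fly work has shown that FNE can take on such a nuclear role when ELAV is missing. The comparison of elav5/fne with elav5 therefore asked what depends on fne once elav is gone. The Canton-S libraries enter only the estimate of the spread.

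Levels are given as normalised CPM, which is the deposited value rescaled so that the average library sums to 1e6, and values of 3 libraries follow the order of replicates 1, 2 and 3. Means are given ± SD with n = 3. Changes are log2 differences of elav5/fne minus elav5 on the log2(normalised CPM + 1) scale, so changes of low genes are understated. A gene was called at a Benjamini-Hochberg adjusted p under 0.05 in limma. Since no label says that the replicates are separate animals, p-values reflect only how far these samples spread, and that spread may be technical. Libraries held 15241461 to 18822734 reads, and 3 reads, the limit that a count of 0 allows, corresponded to 0.150 to 0.196 normalised CPM, for counting error only. Within elav5/fne libraries correlated with r of 0.924 to 0.976 across genes and within elav5 with 0.926 to 0.964. Between these groups r was 0.864 to 0.936. Genes are not independent replicates. The libraries differed in their content of neighbouring tissue. The mean log2 level of 20 muscle genes was 0.92, 1.92 and 2.84 in elav5/fne and 2.601, 1.01 and -0.22 in elav5, each minus the mean of Canton-S. For 27 listed gut genes, tested or not, these differences were 0.13, 1.397 and 3.82 in elav5/fne and 3.21, -0.31 and -0.014 in elav5. elav5/fne replicate 3 and elav5 replicate 1 were thus the highest of their groups for both lists, and the main counts are also given without them.

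The deleted genes followed the labels. fne (chromosome X, 12917477 to 12950417) was at 325, 522 and 278 normalised CPM in elav5/fne, against 4545, 4595 and 4947 in elav5, and at 5041 ± 546 in Canton-S. All 3 elav5/fne libraries lay far below the 3 elav5 libraries, with a mean at 7.99% of that in elav5. fne fell by 3.695 on the log2 scale (SE 0.202, limma adjusted p = 3.94e-06, exact permutation p = 0.1, 2-sided, the smallest that 3 against 3 libraries can give). elav (chromosome X, 509235 to 523226) was at 30.4, 71.3 and 34.2 normalised CPM in elav5/fne, against 33.1, 39.4 and 21.1 in elav5, and at 1643 ± 68.3 in Canton-S. The 2 mutant groups overlapped, and elav did not pass the test between them (log2 0.46, adjusted p = 0.291, exact permutation p = 0.5). Rbp9, the remaining family member, was low in every library, at 3.28, 4.14 and 7.801 normalised CPM in elav5/fne, against 7.78, 4.31 and 4.58 in elav5. It did not pass the test either (log2 -0.14, adjusted p = 0.785, exact permutation p = 0.6), so no rise from elav5 to elav5/fne was detected at this depth. Against Canton-S, the mean of Rbp9 stood at 208% in elav5 and 190% in elav5/fne, at low levels. Not given in the sources used here was the deleted part of either gene. Among the elav5/fne libraries, replicate 2 had the highest value for both fne and elav.

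**Figure D1:**
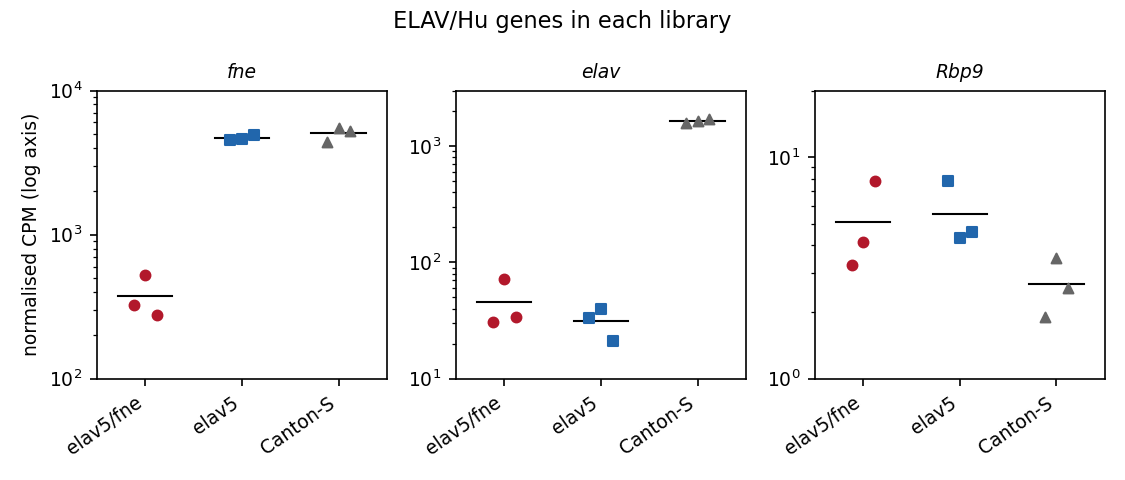
Normalised CPM (log axes, with a range of their own for each gene) of fne, elav and Rbp9 in each library of elav5/fne (red circles), elav5 (blue squares) and Canton-S (grey triangles), with a line at the mean of 3 libraries. fne was low in elav5/fne alone, elav was low in both mutants, and Rbp9 was low in all 3 genotypes.

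Loss of fne on top of elav was accompanied by lower levels of many genes that neurons use for signalling, namely transmitter enzymes and transporters, receptors, ion channels, vesicle proteins and neuropeptides, and of glycolysis genes. Many genes of neural progenitors, the Notch pathway, the cell cycle and the endoplasmic reticulum were higher, and some genes of cell death and JNK signalling. In all, 2940 of 9566 genes were called (30.7%), 1778 of them higher (18.6%) and 1162 lower (12.1%). Of these, 845 were more than 2-fold higher (8.83%) and 469 more than 2-fold lower (4.90%), while 43 rose and 22 fell by more than 8-fold. At an unadjusted p under 0.05 there were 3945 genes, and the libraries of the 2 groups did not overlap for 4167 genes (43.6%). The direction of small changes depended on the scaling. The median log2 change of all genes was 0.16 with the deposited scaling and 0.046 with TMM scaling, and TMM gave 1305 higher and 1475 lower calls where the deposited scaling gave 60.5% of calls as higher. Medians of gene lists are therefore given relative to the median of all genes. Counts of list members are to be read beside the shares of all genes, 18.6% higher and 12.1% lower. Without elav5 replicate 1 and elav5/fne replicate 3, 2702 genes were called, 1694 higher and 1008 lower.

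**Figure D2:**
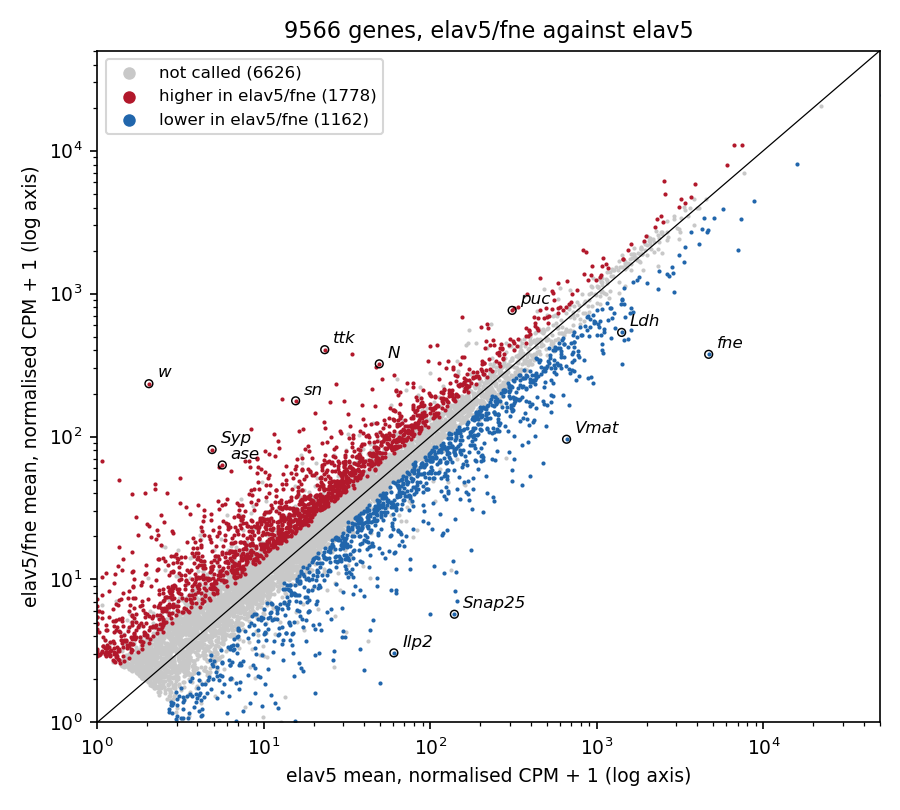
Mean normalised CPM + 1 of each of 9566 genes in elav5/fne (vertical, log axis) against elav5 (horizontal, log axis), with 1778 genes called higher in red, 1162 called lower in blue and the rest in grey. 12 genes named in the text are circled, and the line marks equal levels.

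The 15 largest falls, taken from calls whose mean reached 10 normalised CPM over the 6 libraries and whose groups did not overlap, included genes of vesicle fusion, of secreted signals and of the cell surface. Snap25 (chromosome 3L, 24074180 to 24299205), a SNARE protein that drives fusion of synaptic vesicles, was at 2.78, 9.2004 and 2.16 normalised CPM in elav5/fne, against 136, 124 and 155 in elav5. The log2 change was -4.81 (SE 0.36, limma adjusted p = 1.67e-05). Snap25 overlaps 6 annotated genes on its own strand, so reads of those genes may be included. dpr21, of the Dpr family of immunoglobulin cell surface proteins, was at 0.494, 1.88 and 0.317 in elav5/fne, against 44.1, 33.6 and 68.4 in elav5 (log2 -4.74). 3 secreted signals were in this group. Ilp2, an insulin-like peptide of the brain, was at 2.16, 3.34 and 0.698 in elav5/fne, against 54.4, 41.7 and 82.3 in elav5 (log2 -4.35). Gpb5, a glycoprotein hormone subunit, was at 3.83, 12.8 and 5.14 in elav5/fne, against 117, 133 and 172 in elav5 (log2 -4.24). Eh, the eclosion hormone that acts in the ecdysis sequence, was at 0.124, 0.968 and 0.698 in elav5/fne, against 17.2, 14.4 and 26.6 in elav5 (log2 -3.67). That no elav5/fne value of these hormones reached an elav5 library follows from the rule, which took only groups that did not overlap. FoxP, a forkhead transcription factor, averaged 1.34 ± 1.17 in elav5/fne and 38.7 ± 3.83 in elav5, and Men-b, a malic enzyme, averaged 10.3 ± 1.56 in elav5/fne and 142 ± 4.12 in elav5. MtnF (log2 -4.25), CG42361 (-4.46), witty (-3.61), CG40498 (-3.52), CG6282 (-3.51), CG15814 (-3.36), Acsx1L (-3.37) and fne completed the 15. Acsx1L varied within elav5, at 45.6, 24.5 and 5.24, and lost its call in edgeR and in DESeq2. In 13 of the 15 genes, fne among them, the highest elav5/fne library was replicate 2, and that held for 62 of 98 genes that fell more than 4-fold. Of 198 genes that rose more than 4-fold, replicate 1 was the highest in 97, replicate 2 in 56 and replicate 3 in 45.

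The 15 largest rises, taken by the same rule and so without overlap between the groups, were of more mixed kinds. w (chromosome X, 2790599 to 2796466), whose product carries eye pigment precursors and which serves as a common marker of fly stocks, was at 245, 236 and 218 normalised CPM in elav5/fne, against 0.515, 0.718 and 1.899 in elav5. It was near absent in all elav5 libraries and abundant in all elav5/fne libraries (log2 6.899, SE 0.27, adjusted p = 8.9e-07). Not given in the sources used here were the markers or transgenes that the strains carry. ttk, which encodes the Tramtrack zinc finger repressors of neuronal fate, was at 409, 391 and 413 in elav5/fne, against 33.7, 18.02 and 14.99 in elav5 (log2 4.21, SE 0.29, limma adjusted p = 1.01e-05). Syp, an RNA-binding protein of late neuroblasts and neurons, was at 82.6, 83.99 and 73.7 in elav5/fne, against 4.63, 4.96 and 2.095 in elav5 (log2 4.11). wntD, a secreted Wnt family inhibitor of Dorsal, was at 47.8, 40.998 and 26.8 in elav5/fne, against 0.4503, 0.326 and 1.05 in elav5 (log2 4.61). Kmn1, a kinetochore gene, was at 43.8, 39.4 and 35.3 in elav5/fne, against 0.772, 0.849 and 1.18 in elav5 (log2 4.39). E(spl)mgamma-HLH, a repressor induced by Notch, also belonged to this group (log2 3.89). Adgf-A, an adenosine deaminase-related growth factor, averaged 38.99 ± 4.47 in elav5/fne and 1.64 ± 0.918 in elav5. GluRIIC, a glutamate receptor subunit of larval muscle, was at 26.5, 24.8 and 27.5 in elav5/fne, against 0.322, 0 and 1.83 in elav5 (log2 4.13 on the log2(normalised CPM + 1) scale). Its values differed little between the elav5/fne libraries. GluRIIC kept its call in every setting, the muscle level as a covariate among them. Beyond these fits, the part of muscle tissue in this result was not tested. LysD, a digestive lysozyme gene, was at 8.53, 75.1 and 116 in elav5/fne, against 0.129, 0.0653 and 0 in elav5. Its order among the elav5/fne libraries was that of the gut list, whose part in the result was not tested. kud (log2 4.33), CG15279 (4.17), CG40472 (5.22), CG11300 (4.19), CG42779 (3.91) and BomS3 (3.87) completed the 15. CG42779 and BomS3 lost their calls in some settings, among them edgeR and the fit without elav5/fne replicate 2.

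Most neuronal signalling genes were lower. Over 6 lists (pan-neuronal, vesicle release, transmitter synthesis and transport, transmitter receptors, channels and neuropeptides), 176 of 185 listed genes were tested, of which 123 fell, 9 rose and 44 did not pass, beside 12.1% lower and 18.6% higher among all genes. In whole tissue, fewer cells of a type and less RNA per cell cannot be told apart. Genes of transmitter synthesis and transport had the highest share. 16 of 19 fell, none rose and Ddc, Gat and Hen1, the last an RNA methyltransferase gene, did not pass, and the list median lay -1.07 from that of all genes on the log2 scale. Vmat (chromosome 2R, 13513132 to 13534251), which loads dopamine, serotonin and other monoamines into vesicles, was at 98.2, 114 and 72.4 normalised CPM in elav5/fne, against 638, 695 and 639 in elav5. The groups were well apart (log2 -2.804, SE 0.14, adjusted p = 2.46e-06), and Canton-S was higher still, at 1107 ± 17.99. SerT and DAT, the plasma membrane transporters of serotonin and dopamine, were lower as well. SerT was at 15.8, 16.9 and 10.97 in elav5/fne, against 46.9, 64.7 and 69.2 in elav5 (log2 -1.98), and DAT was at 57.4, 54.6 and 38.9 in elav5/fne, against 155, 197 and 184 in elav5 (log2 -1.82). Tbh, which makes octopamine, averaged 40.8 ± 3.93 in elav5/fne and 116 ± 8.798 in elav5 (log2 -1.48). ChAT, which makes acetylcholine, the main excitatory transmitter of the fly brain, was at 174, 161 and 133 in elav5/fne, against 416, 453 and 416 in elav5 (log2 -1.46). The genes that fell thus covered acetylcholine (ChAT, VAChT, ChT, Ace), glutamate (VGlut), GABA (Gad1, VGAT), monoamine (Vmat, ple, Tdc2, Tbh, Trhn, DAT, SerT, Pu) and histamine (Hdc) neurons. The calls of ChT and ple were lost in several settings, among them the fits without elav5 replicate 1 (both genes), elav5/fne replicate 2 or 3 or elav5 replicate 2 (ChT), and elav5/fne replicate 1 or elav5 replicate 3 (ple).

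Neuropeptide genes had the largest median change of these lists, -1.45 relative to all genes. Of 43 tested, 34 fell, 2 rose (CNMa and Pal1) and 7 did not pass. CNMa lost its call in edgeR, in DESeq2 and without elav5/fne replicate 1, 2 or 3 or elav5 replicate 2. Beside Ilp2 and Eh, Proc, which encodes proctolin, was at 70.3, 76.1 and 46.7 in elav5/fne, against 459, 426 and 534 in elav5 (log2 -2.88, SE 0.17, adjusted p = 5.49e-06). FMRFa, the precursor of FMRFamide peptides, was at 1.67, 2.15 and 2.41 in elav5/fne, against 18.98, 20.6 and 21.7 in elav5 (log2 -2.804). Dh31, a diuretic hormone that is also a circadian output peptide, was at 36.4, 38.1 and 31.7 in elav5/fne, against 134, 147 and 170.02 in elav5 (log2 -2.05). Groups did not overlap in 37 of the 43 genes, these 3 included, beside 43.6% of all genes. These 3 were named for their small p. AstC, allatostatin C, averaged 14.7 ± 2.59 in elav5/fne and 55.5 ± 4.74 in elav5. Some genes of peptide processing were also lower, Pal2 among them, while Pal1 was higher. amon, the prohormone convertase that cuts precursors, averaged 95.8 ± 6.93 in elav5/fne and 242 ± 2.096 in elav5 (log2 -1.33), and svr, a carboxypeptidase gene next to elav, averaged 219.9 ± 15.9 in elav5/fne and 295 ± 10.04 in elav5 (log2 -0.42). Akh, the adipokinetic hormone of the neighbouring corpora cardiaca, was at 47.7, 62.1 and 37.2 in elav5/fne, against 38.98, 41.2 and 25.3 in elav5, with overlapping groups, and did not pass (log2 0.47, adjusted p = 0.214). The level of the whole list minus the Canton-S mean was -1.63, -1.49 and -1.74 in elav5/fne and -0.46, -0.46 and -0.32 in elav5, on the log2 scale.

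Of 39 genes of vesicle release and recycling, 27 fell, 3 rose and 9 did not pass (median -0.69 relative to all genes). Over the settings the number that fell was 22 to 32. The proteins of this list load, dock, fuse and retrieve synaptic vesicles. Sap47, a synapse-associated protein, was at 1102, 1124 and 852 normalised CPM in elav5/fne, against 2772, 3218 and 2717 in elav5 (log2 -1.51). Syt7, a calcium sensor of the synaptotagmin family, was at 78.3, 86.3 and 64.6 in elav5/fne, against 261, 296 and 332 in elav5 (log2 -1.94). Frq2, a frequenin calcium sensor that adjusts release, was at 54.7, 53.05 and 45.2 in elav5/fne, against 137, 167 and 138 in elav5 (log2 -1.51). shi, the dynamin that cuts vesicles from the membrane, was at 595, 609 and 520.2 in elav5/fne, against 1127, 1418 and 1296 in elav5 (log2 -1.15). These 4 were named for their small p. Groups did not overlap in 33 of the 39 genes, these 4 included, beside 43.6% of all genes. Nor did they overlap in the widely used neuronal markers Syt1 and Syn, with smaller changes. Syt1, the main calcium sensor of fast release, averaged 794 ± 80.5 in elav5/fne and 1204 ± 82.9 in elav5 (log2 -0.603). Syn, synapsin, averaged 327 ± 22.7 in elav5/fne and 518 ± 40.9 in elav5 (log2 -0.66). brp, another neuronal marker, was called lower, at 549, 518 and 477 in elav5/fne, against 723, 855 and 565 in elav5. Its call was lost when any 1 library except elav5 replicate 3 was left out. Liprin-alpha, Rab3-GEF, lap and AP-2sigma lost their lower calls without elav5/fne replicate 3 or elav5 replicate 2. The 3 genes of the vesicle list that rose were cac, the presynaptic calcium channel, the adaptor gene AP-2alpha and Syb, the broadly expressed synaptobrevin. The call of cac was lost in 15 of the 23 settings, among them TMM scaling, edgeR, DESeq2 and each single library left out except elav5/fne replicate 3 and elav5 replicate 2. Of 14 pan-neuronal genes 9 fell, Nrg rose, and Appl, cpo, futsch and Elp3 did not pass. Appl, the fly amyloid precursor-like gene of all neurons, averaged 2356 ± 175 in elav5/fne and 2647 ± 171 in elav5 (log2 -0.17, adjusted p = 0.245).

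Receptors followed the same direction, with 25 of 37 lower, 5-HT2A higher (2 genes without elav5 replicate 1 or 2) and 11 not passing (median -0.76 relative to all genes). nAChRalpha7, a nicotinic acetylcholine receptor subunit, was at 118, 133 and 108 normalised CPM in elav5/fne, against 398, 429.7 and 351 in elav5 (log2 -1.71, SE 0.11, adjusted p = 7.92e-06), and at 713 ± 38.6 in Canton-S. nAChRalpha4 was at 19.7, 28.2 and 17.1 in elav5/fne, against 94.2, 114 and 97.2 in elav5 (log2 -2.21), with 19 annotated genes overlapping it on the same strand. mGluR, the metabotropic glutamate receptor, averaged 67.9 ± 8.204 in elav5/fne and 185 ± 16.1 in elav5, and Octbeta3R, an octopamine receptor, averaged 62.8 ± 12.05 in elav5/fne and 157 ± 11.2 in elav5. DopEcR, a receptor of dopamine and ecdysone, averaged 181 ± 13.4 in elav5/fne and 316 ± 15.4 in elav5 (log2 -0.799). These 5 were named for their small p. Groups did not overlap in 28 of the 37 genes, these 5 included, beside 43.6% of all genes. Over the settings 20 to 29 receptor genes fell. mAChR-B, nAChRalpha3, nAChRalpha5 and GluRIA lost their lower calls in several settings, each of them without elav5/fne replicate 3 or elav5 replicate 2. Of 32 voltage-gated and potassium channel genes 18 fell, 3 rose (cac, eag and Irk3) and 11 did not pass. The number that fell was 15 to 23 over the settings. SK, SLO2 and NaCP60E lost their lower calls when any 1 library except elav5 replicate 3 was left out. qvr, also called sleepless, a membrane-anchored regulator of Shaker channels and nicotinic receptors, was at 27.4, 25.9 and 23.1 in elav5/fne, against 135, 153 and 129 in elav5 (log2 -2.401, SE 0.103, adjusted p = 1.92e-06). Teh4, an auxiliary sodium channel subunit, was at 14.96, 13.4 and 10.2 in elav5/fne, against 64.2, 72.9 and 86.9 in elav5 (log2 -2.45). slo, the calcium-activated potassium channel, was at 498, 484 and 433 in elav5/fne, against 1446, 1684 and 1206 in elav5 (log2 -1.603). Ih, the hyperpolarisation-activated channel, averaged 442 ± 21.5 in elav5/fne and 1076 ± 54.5 in elav5, and Shal, a fast potassium channel, averaged 105 ± 9.79 in elav5/fne and 233 ± 22.98 in elav5. The number of channel genes that rose was 1 rather than 3 under TMM scaling, in edgeR, in DESeq2 and without elav5/fne replicate 1 or 2, elav5 replicate 3 or any 1 Canton-S library, the calls of cac and eag being lost.

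Genes of axon guidance, adhesion and the cytoskeleton, which also act in growing neurons, were called in both directions. Their shares of higher calls lay below that of all genes, and their shares of lower calls above. Of 49 guidance and adhesion genes 13 fell (26.5%, beside 12.1% of all genes), 6 rose (12.2%, beside 18.6%) and 30 did not pass. Lar, a receptor phosphatase of axons and synapses, was at 62.3, 65.4 and 47.7 normalised CPM in elav5/fne, against 174, 216 and 186 in elav5 (log2 -1.71), and CadN, the neuronal cadherin, was at 929, 893 and 711 in elav5/fne, against 1428, 1592 and 1321 in elav5 (log2 -0.78). Of the neuroligins, postsynaptic adhesion proteins, Nlg1 rose, and Nlg2, Nlg3 and Nlg4 fell. Nlg4 lost its call without both elav5 replicate 1 and elav5/fne replicate 3. Nlg1, known from the neuromuscular junction, was at 12.1, 8.82 and 9.32 in elav5/fne, against 0.129, 0.196 and 0.0655 in elav5 (log2 3.28), whereas Nlg2 was at 124, 128 and 114 in elav5/fne, against 179, 216 and 205 in elav5 (log2 -0.71). Fas3, a homophilic adhesion protein of axons and epithelia, averaged 159 ± 21.2 in elav5/fne and 83.4 ± 8.77 in elav5 (log2 0.92). Of 24 cytoskeleton and transport genes 8 fell (33.3%), 4 rose (16.7%) and 12 did not pass. The motors unc-104, which carries synaptic vesicle precursors along axons, and Klp64D, a kinesin-2 subunit, fell (log2 -1.08 and -1.49). betaTub56D, a general beta-tubulin, averaged 1567 ± 187 in elav5/fne and 936 ± 95.6 in elav5 (log2 0.74), and Map205, a microtubule-associated protein, averaged 418 ± 48.1 in elav5/fne and 263 ± 2.35 in elav5 (log2 0.66). Of 31 transcription factors that mark neuron subtypes 4 fell, 3 rose and 24 did not pass, shares below those of all genes for higher calls and close to them for lower calls. 2 fell without elav5/fne replicate 2 or replicate 3, and 7 in DESeq2. scrt, a neuronal zinc finger factor, averaged 1393 ± 191 in elav5/fne and 2884 ± 191 in elav5 (log2 -1.06).

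**Figure D3:**
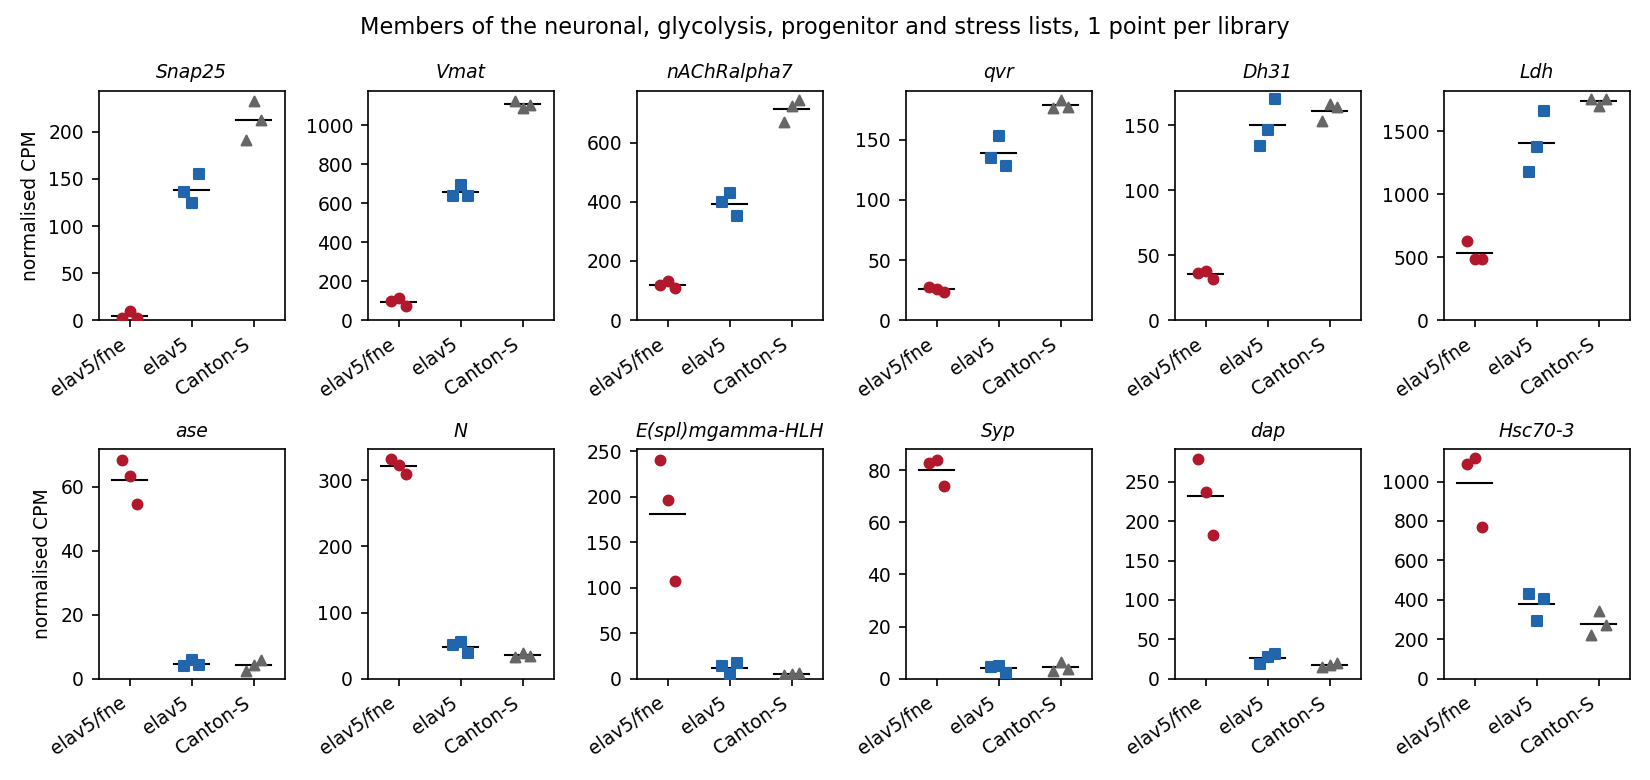
Normalised CPM (linear axes from 0, with a range of their own for each gene) of 12 genes in each library of elav5/fne (red circles), elav5 (blue squares) and Canton-S (grey triangles), with a line at the mean of 3 libraries. Snap25, Vmat, nAChRalpha7, qvr, Dh31 and Ldh fell and ase, N, E(spl)mgamma-HLH, Syp, dap and Hsc70-3 rose in elav5/fne against elav5, with no overlap between the 2 groups.

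Glycolysis genes fell as a set. This pathway splits glucose to pyruvate, and in the fly nervous system it is known for its use by glia that feed lactate to neurons as well as by neurons. Of 15 genes tested 12 fell, none rose, and Hex-C, Gpdh1 and the regulator ERR did not pass, and the count of 12 lower was the same in each of the 23 alternative settings. The median lay -1.26 from that of all genes. Ldh, lactate dehydrogenase, was at 627, 486 and 489.7 normalised CPM in elav5/fne, against 1180.0, 1380.2 and 1665 in elav5 (log2 -1.39, SE 0.14, adjusted p = 8.16e-05). Pglym78, phosphoglycerate mutase, was at 404, 409.9 and 339 in elav5/fne, against 867, 1067 and 1343 in elav5 (log2 -1.49), and Pgi, phosphoglucose isomerase, was at 331, 367 and 327 in elav5/fne, against 740.05, 789.9 and 975 in elav5 (log2 -1.28). Hex-A, the main hexokinase, averaged 560.2 ± 32.9 in elav5/fne and 1109 ± 50.97 in elav5 (log2 -0.98), and PyK, pyruvate kinase, averaged 361 ± 27.6 in elav5/fne and 779 ± 107 in elav5 (log2 -1.103). Within each genotype the libraries lay close together: the list level minus the Canton-S mean was -1.18, -0.93 and -0.99 in elav5/fne and -0.21, -0.22 and -0.087 in elav5. Of 30 nuclear genes of oxidative phosphorylation 7 fell (23.3%, beside 12.1% of all genes) and 23 did not pass, with smaller changes, as for SdhA of complex II at 145 ± 8.46 in elav5/fne and 215 ± 8.38 in elav5 (log2 -0.57). That count ranged from 4 to 23 over the settings and was 16 under TMM scaling, 4 without elav5/fne replicate 1 or 2, 13 without elav5/fne replicate 3 and 11 without elav5 replicate 2.

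Most tested genes of neural progenitors were higher. Over 4 lists (neuroblast, proneural bHLH, Notch and E(spl), and cell cycle) 92 of 96 listed genes were tested, of which 56 rose, 4 fell and 32 did not pass, beside 18.6% higher and 12.1% lower among all genes. With temporal factors as a 5th list, 60 of 109 rose and 9 fell. Neuroblasts are the stem cells of the fly nervous system, which divide asymmetrically to renew themselves and to make neurons and glia. Of 26 neuroblast genes 15 rose, numb and dlg1 fell and 9 did not pass (median 0.69 relative to all genes). ase, the asense proneural factor of neuroblasts, was at 68.6, 63.5 and 54.7 normalised CPM in elav5/fne, against 4.05, 5.68 and 4.19 in elav5. It was low in every elav5 library and abundant in every elav5/fne library (log2 3.49, SE 0.26, adjusted p = 1.66e-05). It lies 46059 bases from elav. mira, the scaffold that carries fate determinants into the daughter cell, was at 127, 122 and 91.8 in elav5/fne, against 18.98, 26.4 and 21.1 in elav5 (log2 2.304). klu, a zinc finger factor of neuroblasts, was at 487, 452 and 367 in elav5/fne, against 108, 137 and 79.8 in elav5 (log2 2.02). The polarity genes baz and l(2)gl, known also from epithelia, rose alike. baz was at 174, 173 and 182 in elav5/fne, against 33.96, 34.9 and 18.7 in elav5 (log2 2.61), and l(2)gl was at 279, 269.6 and 263 in elav5/fne, against 61.04, 59.5 and 57.3 in elav5 (log2 2.17). dpn, a defining marker of neuroblasts, averaged 40.99 ± 11.01 in elav5/fne and 10.9 ± 3.18 in elav5 (log2 1.83). wor, another, was at 22.9, 21.4 and 11.4 in elav5/fne, against 10.2, 11.8 and 14.01 in elav5 and did not pass (log2 0.54, adjusted p = 0.226), and esg could not be matched to the table. Among the members that did not pass were pros, brat, pon, aPKC, par-6 and pins, most of them known from asymmetric division. Of 10 proneural bHLH genes 7 rose, emc, an inhibitor of this class, fell, and Oli and dimm did not pass. sc was at 11.2, 9.15 and 6.85 in elav5/fne, against 0.129, 0.457 and 1.37 in elav5 (log2 2.65) and l(1)sc at 6.92, 7.86 and 5.899 in elav5/fne, against 0.643, 1.11 and 2.29 in elav5 (log2 1.802), both low genes of the achaete-scute complex that promote neuroblast formation. tap, a neurogenin-like factor, averaged 63.2 ± 12.4 in elav5/fne and 29.4 ± 5.55 in elav5.

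The Notch pathway passes a signal between neighbouring cells that holds progenitors back from becoming neurons, and genes of the E(spl) complex are its classical targets. Of 27 genes tested 21 rose, numb fell, and Ser, Su(H), aph-1, Nct and kuz did not pass. numb, which also stands on the neuroblast list, lost its call without elav5/fne replicate 1, 2 or 3 and without elav5 replicate 3. The list median lay 1.52 above that of all genes, the highest of the 40 lists. N (chromosome X, 3134870 to 3172221), the receptor, was at 332, 323 and 309 normalised CPM in elav5/fne, against 50.9, 55.2 and 39.1 in elav5, with closely spaced libraries in each group (log2 2.72, SE 0.13, adjusted p = 2.42e-06). Targets were more variable within elav5/fne. E(spl)mgamma-HLH was at 241, 196 and 107 in elav5/fne, against 13.6, 5.16 and 16.7 in elav5, and E(spl)m8-HLH at 106, 78.4 and 50.04 in elav5/fne, against 9.65, 8.75 and 9.17 in elav5 (log2 2.897). Tom, a Bearded family member, was at 171, 159.7 and 108 in elav5/fne, against 18.1, 19.8 and 19.97 in elav5 (log2 2.83), and E(spl)malpha-BFM, another, averaged 22.7 ± 10.98 in elav5/fne and 1.04 ± 0.516 in elav5. In these 4 genes replicate 1 was the highest and replicate 3 the lowest of the elav5/fne libraries, yet replicate 3 was above every elav5 library. The list level minus the Canton-S mean was 2.32, 2.28 and 1.81 in elav5/fne and 0.32, 0.31 and 0.34 in elav5.

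Of 34 cell cycle genes 17 rose, the histone variant gene His2Av fell and 16 did not pass (median 0.52 relative to all genes). dap, an inhibitor of the cyclin E kinase that holds cells out of the cycle, had the largest change of those named, at 278, 237 and 182 normalised CPM in elav5/fne, against 18.8, 27.9 and 31.3 in elav5 (log2 3.12, SE 0.21, adjusted p = 1.01e-05). Activators rose beside it. stg, the Cdc25 phosphatase that starts mitosis, was at 254, 220.4 and 155 in elav5/fne, against 65.2, 58.3 and 60.5 in elav5 (log2 1.73), and CycA at 83.3, 79.04 and 58.7 in elav5/fne, against 23.3, 24.7 and 19.2 in elav5 (log2 1.67). CycE, of S phase entry, averaged 16.98 ± 1.604 in elav5/fne and 5.52 ± 0.743 in elav5, and polo, a mitotic kinase, averaged 21.2 ± 3.73 in elav5/fne and 5.87 ± 0.978 in elav5. The replication genes were split, since Mcm2, dpa, Mcm6, dup and geminin rose while Mcm5, Mcm7, PCNA, RnrS and RnrL did not pass. The count was 9 higher with a mean deposited value of at least 160, a filter that keeps fewer genes.

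Temporal factors, which neuroblasts express in turn to make different neurons, went both ways. Of 19 tested 5 rose (cas, grh, Syp, lin-28 and mamo), 5 fell (Kr, pdm2, nub, br and dan) and 9 did not pass, among them hb, svp and chinmo. Each share was 26.3%, beside 18.6% higher and 12.1% lower among all genes. 3 fell without elav5/fne replicate 2 or 3 or elav5 replicate 3, the calls of pdm2 and dan being lost. cas was at 139, 143 and 110.4 normalised CPM in elav5/fne, against 35.8, 48.7 and 30.2 in elav5 (log2 1.76), and Kr, an earlier factor of the series, was at 52.6, 58.7 and 40.1 in elav5/fne, against 99.6, 103 and 113 in elav5 (log2 -1.06). lin-28, a regulator of let-7 microRNA, was at 183, 155 and 151 in elav5/fne, against 45.3, 44.5 and 47.1 in elav5 (log2 1.81). grh averaged 156 ± 6.81 in elav5/fne and 56.3 ± 11.3 in elav5.

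Of 27 glial genes tested 7 rose (25.9%, beside 18.6% of all genes), 5 fell (18.5%, beside 12.1%) and 15 did not pass, repo among them, the transcription factor that defines most glia, which was at 28.4, 44.4 and 22.9 normalised CPM in elav5/fne, against 17.6, 26.1 and 19.7 in elav5. moody, another glial marker, rose, at 42.9, 47.02 and 54.04 in elav5/fne, against 26.8, 32.7 and 14.9 in elav5. The list median was -0.049 relative to all genes, and 3 fell without elav5/fne replicate 3 or elav5 replicate 2 and 8 in DESeq2. wrapper, of midline and cortex glia, was at 10.9, 13.3 and 8.37 in elav5/fne, against 29.2, 37.9 and 32.3 in elav5 (log2 -1.54), and Eaat2, an amino acid transporter, averaged 41.2 ± 5.296 in elav5/fne and 75.9 ± 4.06 in elav5 (log2 -0.87). loco, a regulator of G protein signalling, averaged 53.6 ± 2.51 in elav5/fne and 22.1 ± 5.07 in elav5 (log2 1.26). vn, an EGF receptor ligand, and htl, an FGF receptor, rose by 1.47 and 0.98 on the log2 scale.

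**Figure D4:**
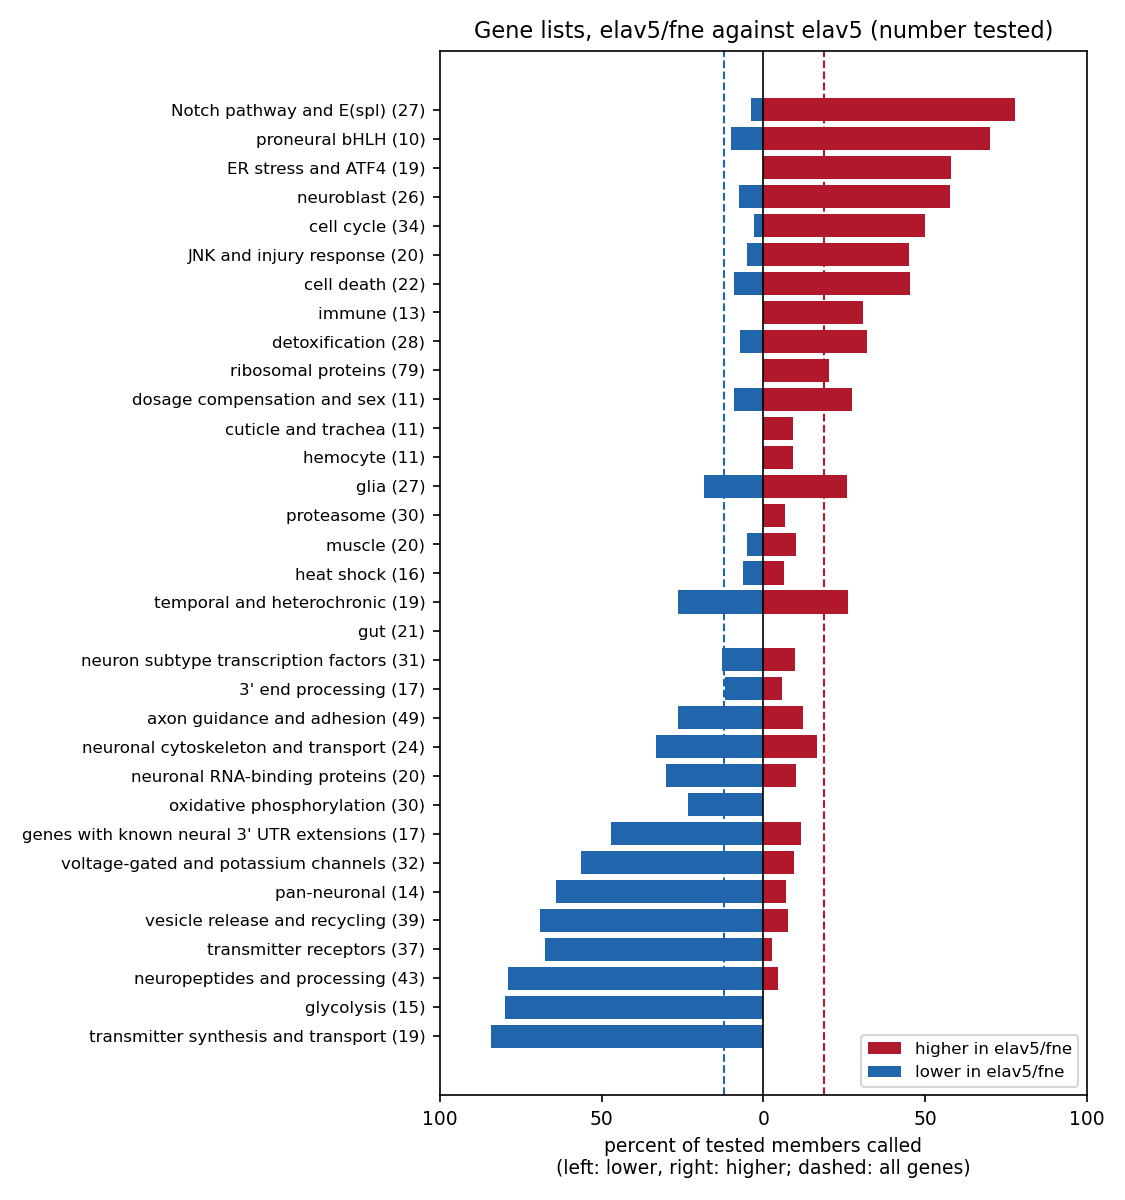
Percent of tested members called higher (red, to the right) and lower (blue, to the left) in elav5/fne against elav5, for the gene lists with at least 10 tested members, whose number stands in parentheses. Dashed lines mark all genes, 18.6% higher and 12.1% lower, and the bars are sorted by the difference of the shares, with Notch, proneural and ER stress genes at the top and glycolysis and transmitter synthesis genes at the bottom.

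Genes of cell death and stress signalling rose in part. Of 22 cell death genes 10 rose (45.5%, beside 18.6% of all genes), Dark and Damm fell (9.09%, beside 12.1%) and 10 did not pass. Dark lost its call without elav5/fne replicate 1, 2 or 3, elav5 replicate 2 or 3 or Canton-S replicate 3. All 4 inducers of the reaper group on the list (rpr, hid, grim and skl), which release caspases from inhibition, were among those that rose. hid was at 31.3, 23.2 and 19.7 normalised CPM in elav5/fne, against 4.44, 4.31 and 5.24 in elav5 (log2 2.16, SE 0.22, adjusted p = 9.32e-05), and skl at 23.6, 18.5 and 15.03 in elav5/fne, against 2.44, 5.88 and 4.39 in elav5 (log2 1.97). egr, the TNF ligand that acts through JNK, was at 45.6, 46.3 and 43.9 in elav5/fne, against 11.4, 12.01 and 12.2 in elav5 (log2 1.84). Drice, an effector caspase, averaged 25.6 ± 5.33 in elav5/fne and 9.403 ± 1.03 in elav5, and Dredd, an initiator caspase of immune signalling, averaged 12.96 ± 1.53 in elav5/fne and 2.97 ± 0.518 in elav5. Dronc, Dcp-1 and the inhibitors Diap1 and Diap2 did not pass. Of 20 genes of JNK signalling and injury 9 rose (45.0%, beside 18.6% of all genes), bsk, the kinase itself, fell and 10 did not pass. puc, the phosphatase that JNK induces, was at 897, 788 and 602 in elav5/fne, against 304, 299 and 324 in elav5 (log2 1.28), and Mmp1, a matrix metalloprotease, was at 78.7, 52.5 and 69.5 in elav5/fne, against 32.3, 22.8 and 15.8 in elav5 (log2 1.4997). The number that rose was 5 in 11 of the settings, among them TMM scaling and the fits without elav5/fne replicate 1, 2 or 3, elav5 replicate 2 or 3 or Canton-S replicate 2. bsk lost its call without elav5 replicate 2.

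Chaperones of the endoplasmic reticulum were higher. Of 19 genes of ER stress and ATF4 signalling 11 rose, none fell and 8 did not pass (7 rose without elav5 replicate 2, and 1 fell without elav5/fne replicate 2). Hsc70-3, the fly BiP, was at 1089, 1119.9 and 769 normalised CPM in elav5/fne, against 431, 295 and 406 in elav5 (log2 1.39). Gp93, its partner of the Hsp90 class, was at 162, 139 and 126 in elav5/fne, against 31.8, 28.8 and 32.6 in elav5 (log2 2.16, SE 0.14, adjusted p = 8.8e-06), and Calr, calreticulin, was at 608, 572 and 531 in elav5/fne, against 201, 217 and 246 in elav5 (log2 1.37). Xbp1, the transcription factor of the unfolded protein response, averaged 209.8 ± 8.88 in elav5/fne and 129 ± 23.03 in elav5 (log2 0.71). Nmdmc, a mitochondrial folate enzyme, averaged 54.01 ± 3.84 in elav5/fne and 14.7 ± 4.56 in elav5. crc, which encodes ATF4, and PEK, its upstream kinase, did not pass. Of 16 tested heat shock genes Hsc70-4, a constitutive cytosolic chaperone, rose, Hsp67Ba fell, and 14 did not pass. Hsp67Ba lost its call without elav5/fne replicate 1 or 3 or elav5 replicate 2 or 3, and 2 genes fell without elav5/fne replicate 2. Hsp26 was at 708, 1271 and 757 in elav5/fne, against 907, 184 and 665 in elav5, with overlapping groups. The metallothionein list held 6 genes, of proteins that bind heavy metals and of the transcription factor MTF-1. Of these MtnB alone was called, lower, at 5.996, 5.76 and 31.1 in elav5/fne, against 37.9, 49.4 and 91.6 in elav5. MtnF, which is not on this list, was among the 15 largest falls (log2 -4.25) and kept its call in every setting. In MtnB, MtnD and MtnE elav5/fne replicate 3 was the highest of its group. 3 of the 6 were called lower without that library, and none in edgeR, in DESeq2 or without elav5/fne replicate 1 or 2 or elav5 replicate 3.

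Detoxification and immune genes varied more between libraries. Of 28 detoxification genes tested, 9 were called higher (32.1%) and 2 lower (7.14%), beside 18.6% and 12.1% of all genes. The number that rose was 15 without elav5 replicate 1 and 5 without elav5 replicate 2 or without elav5 replicate 3. GstD3, a glutathione transferase, was at 69.7, 60.7 and 43.95 normalised CPM in elav5/fne, against 17.5, 10.97 and 14.7 in elav5 (log2 1.94), and Cat, catalase, averaged 51.7 ± 5.56 in elav5/fne and 23.2 ± 2.599 in elav5 (log2 1.12). Of 13 immune genes 4 rose (30.8%, beside 18.6% of all genes) and none fell. The count that rose was 7 without elav5 replicate 1 and 2 without elav5 replicate 2 or without elav5 replicate 3. dl, the NF-kappaB factor Dorsal, was among those that rose, at 359, 284 and 277 in elav5/fne, against 67.5, 44.001 and 26.97 in elav5 (log2 2.79, SE 0.27, adjusted p = 7.11e-05). Rel, another such factor, averaged 61.7 ± 6.17 in elav5/fne and 26.96 ± 10.5 in elav5. With the muscle level as a covariate 4 detoxification genes were lower in place of 2. Beyond the fits named here, the part of neighbouring tissue in these 2 lists was not tested. The muscle and gut levels of the same libraries stand above.

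Ribosomal protein genes lay close to the median of all genes. Of 79 tested 16 rose (20.3%, beside 18.6% of all genes), none fell and 63 did not pass, and the list median was 0.0077 relative to all genes. RpL15 averaged 5813 ± 253 in elav5/fne and 3875 ± 490.4 in elav5 (log2 0.59) and RpS2 averaged 1553 ± 53.6 in elav5/fne and 1078 ± 112 in elav5 (log2 0.53). Under TMM scaling 3 rose and 1 fell, and 32 rose with scaling to library totals. 5 rose without elav5/fne replicate 1 or 2, 7 without elav5/fne replicate 3 or elav5 replicate 2, and 10 without Canton-S replicate 1 or 3. Of 30 proteasome genes 2 rose, and in 1 of them, Prosbeta6, the change was large. It was at 69.9, 62.8 and 71.5 normalised CPM in elav5/fne, against 5.92, 6.92 and 11.5 in elav5 (log2 2.97, SE 0.21, adjusted p = 1.31e-05), and at 91.2, 88.7 and 70.4 in Canton-S. The other, Prosbeta4, changed by 0.58 and lost its call in several settings, among them TMM scaling, edgeR and the fits without elav5/fne replicate 1 or 3 or elav5 replicate 1 or 2.

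RNA-level targets of the family were examined by their gene totals. Of the 17 genes tested whose 3' UTRs are known to be extended in neurons, 8 fell, 2 rose and 7 did not pass, fne itself being among the 8. ctp, a dynein light chain, was at 1104, 1109 and 999.9 normalised CPM in elav5/fne, against 2239.9, 2283 and 2439 in elav5 (log2 -1.12, SE 0.082, adjusted p = 1.58e-05). mei-P26, a translational regulator of the TRIM-NHL class, was at 767, 742 and 706 in elav5/fne, against 1812, 1736 and 1365 in elav5 (log2 -1.14), and shep, a neuronal RNA-binding protein, was at 2292, 2253 and 2144 in elav5/fne, against 4023, 4599 and 3771 in elav5 (log2 -0.89). lola, a zinc finger gene with many isoforms, went the other way, at 2173, 1945 and 1972 in elav5/fne, against 827, 909 and 747 in elav5 (log2 1.296), as did AGO1. The totals of nej, brat, pum, spen, step and Adar did not pass, which says nothing of how their 3' ends were chosen. Of 9 known ELAV splicing targets 5 fell (Dscam1, fne, Sap47, Snap25 and slo), 3 rose (Nrg, ewg and cac) and arm did not pass, so 8 of 9 were called, beside 30.7% of all genes. The 8 include fne, the gene deleted in elav5/fne, whose call is given by the genotype. 7 of the 9 are also on other lists described here, and cac is the gene whose call was lost in many settings. ewg, a transcription factor whose neural splicing ELAV is known to promote, was at 746, 686 and 633 in elav5/fne, against 140.4, 182 and 139 in elav5, with every elav5/fne library far above every elav5 library (log2 2.16, SE 0.14, adjusted p = 7.9e-06). Among 20 other neuronal RNA-binding protein genes 2 rose (Syp and how, 4 genes without elav5/fne replicate 3), 6 fell and 12 did not pass. mub averaged 274 ± 31.3 in elav5/fne and 569.7 ± 36.95 in elav5, and mbl, muscleblind, averaged 1369 ± 161 in elav5/fne and 2620.5 ± 249.7 in elav5. Of 17 genes of the 3' end processing machinery pAbp, the cytoplasmic poly(A)-binding protein, rose, at 11001 ± 519 in elav5/fne and 7414 ± 129.9 in elav5, Cpsf6 and CstF50 fell (log2 -0.397 and -0.905) and 14 did not pass. These shares, 5.88% higher and 11.8% lower, lay below the 18.6% and 12.1% of all genes. The calls of Cpsf6 and CstF50 were lost in several settings, in both genes without elav5/fne replicate 1 and without elav5 replicate 2. Cpsf6 also lost it without elav5/fne replicate 2, elav5 replicate 3 or Canton-S replicate 3, CstF50 without elav5 replicate 1, and 2 genes rose without elav5/fne replicate 3.

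Some large differences concerned genes that report on strain or sex, or that lie near the deletions. fru, a BTB zinc finger gene of the sex determination pathway with many functions in both sexes, was at 391, 348 and 395 normalised CPM in elav5/fne, against 42.6, 33.2 and 23.4 in elav5 (log2 3.51, SE 0.19, adjusted p = 4.37e-06), and averaged 92.9 ± 13.7 in Canton-S. lncRNA:roX1, a noncoding RNA of male dosage compensation, averaged 3991 ± 379 in elav5/fne and 4132 ± 489 in elav5 and did not pass (log2 -0.048, adjusted p = 0.783). Sxl, the female switch gene, which is also expressed in neurons, fell, at 300.2 ± 22.8 in elav5/fne and 484 ± 66.1 in elav5 (log2 -0.68). Of 11 genes of this list 3 rose (fru, msl-1 and tra), Sxl fell and 7 did not pass. The shares were 27.3% higher and 9.09% lower, beside 18.6% and 12.1% of all genes. msl-1 lost its call in 11 settings, among them TMM scaling, edgeR, DESeq2 and the fits without elav5/fne replicate 2 or 3 or elav5 replicate 1 or 3. tra lost it in 6, among them edgeR and the fits without elav5/fne replicate 1 or 3 or elav5 replicate 2. A difference in the mix of sexes cannot be told apart from genotype here. Of 8 visible marker genes 3 rose, w, sn and f, and none fell (1 without elav5/fne replicate 2). sn, the actin bundling protein fascin, was at 189, 181 and 160.5 in elav5/fne, against 14.7, 15.8 and 13.1 in elav5 (log2 3.52), and at 112, 124 and 107 in Canton-S. For CG40472, a gene of unknown function, the values were 44.2, 47.8 and 53.5 in elav5/fne, against 0.0643, 0.718 and 0.262 in elav5, and 104.3, 95.5 and 88.8 in Canton-S. In sn, Prosbeta6 and CG40472, elav5 was the low genotype and the elav5/fne libraries were nearer to Canton-S, although both mutants lacked elav. Of 8 tested genes within 50 kb of fne, hec, Pde9, mRpL49 and CG4645 fell and 4 did not pass, beside 12.1% lower among all genes. mRpL49 lost its call in 12 settings, among them the fits without any 1 elav5/fne library, elav5 replicate 1 or 3 or Canton-S replicate 1 or 3. hec, a G protein-coupled receptor gene 19 bases from fne, was at 0, 0.0538 and 0 in elav5/fne, against 5.21, 5.55 and 6.74 in elav5 (limma adjusted p = 2.46e-05), a single read over the elav5/fne libraries. Near elav, 16 genes were tested, of which ase, CG32816, CR18275, CG13373, CG17896 and CG4293 rose, svr fell and 9 did not pass, beside 18.6% higher among all genes. CG4293 lost its call in 16 settings, among them TMM scaling, edgeR, DESeq2 and the fits without any 1 mutant library or Canton-S replicate 3, and CG13373 without elav5/fne replicate 1 or 3 or elav5 replicate 2.

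Tissues outside the nervous system were followed by their own lists. Muscle and gut genes differed widely between libraries of 1 genotype. Mhc, the myosin heavy chain, was at 103, 338 and 903 normalised CPM in elav5/fne, against 604, 207 and 38.2 in elav5. The groups overlapped, and 17 of 20 muscle genes did not pass, while wupA and Strn-Mlck rose and Pgant9, a glycosyltransferase gene on this list, fell. wupA lost its call without elav5/fne replicate 2 or 3 or elav5 replicate 2 or 3, and Pgant9 without elav5/fne replicate 1 or 2 or elav5 replicate 2. Without elav5 replicate 1, 8 muscle genes were higher, and without that library and elav5/fne replicate 3 there were 5. The digestive trypsin gene alphaTry was at 9.396, 149 and 298 in elav5/fne, against 237, 4.05 and 23.9 in elav5, and none of 21 gut genes passed (4 rose without elav5 replicate 1, 2 without elav5/fne replicate 1, and 2 without that library and elav5/fne replicate 3). Lsp2, a serum protein of the fat body, stood between 0 and 0.450 normalised CPM in the 6 libraries, and Sgs3, a salivary glue gene, between 0 and 0.865. Of 11 hemocyte genes 1 rose, Ppn, of the extracellular matrix, of 6 fat body genes 3 rose, of 11 cuticle and trachea genes obst-A rose, of 5 salivary gland genes PH4alphaSG1 rose, and of 5 ring gland genes jhamt fell. Among all genes 18.6% were higher and 12.1% lower. Without elav5 replicate 1, 5 hemocyte, 3 cuticle and trachea and 2 salivary gland genes rose. Ppn lost its call without elav5/fne replicate 3, jhamt without elav5/fne replicate 3 or elav5 replicate 2, and PH4alphaSG1 without elav5/fne replicate 2 or elav5 replicate 2 or 3. 1 fat body gene fell without elav5/fne replicate 2. Minus the Canton-S mean, the vesicle list was at -0.77, -0.73 and -1.01 in elav5/fne and -0.28, -0.11 and -0.23 in elav5, and the neuroblast list at 1.55, 1.45 and 1.15 in elav5/fne and 0.199, 0.17 and 0.13 in elav5. elav5/fne replicate 3, where muscle and gut genes stood highest, had the lowest vesicle and neuroblast levels of the 3, and the part of the muscle and gut levels in this order was not tested.

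**Figure D5:**
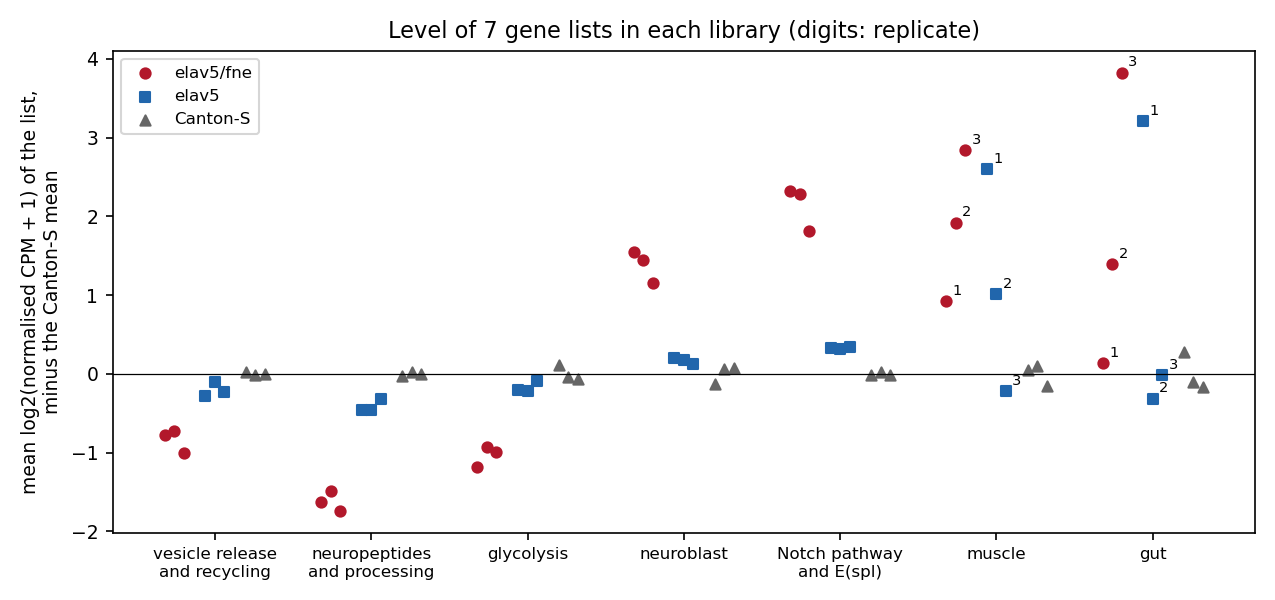
Mean log2(normalised CPM + 1) of all listed members, tested or not, of 7 gene lists in each library, minus the Canton-S mean of the same list, for elav5/fne (red circles), elav5 (blue squares) and Canton-S (grey triangles), with replicate numbers beside the muscle and gut points of the mutants. The groups were apart for the neuronal, glycolysis and progenitor lists, while the muscle and gut levels of elav5/fne and elav5 overlapped and spread widely within each genotype.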

How the data were processed

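Central nervous systems of 1st instar larvae were profiled by 3'-end sequencing, 3 libraries for each of 3 genotypes, prepared from total RNA with the Lexogen QuantSeq REV kit, per the labels' protocols. The genome build was dm6, per the submitters' processing notes. Not given in the sources used here were the aligner, the read counter, the gene annotation and how strand was treated. The deposited table holds a signal per gene, which is each library's whole reads divided by 1 size factor. The values show this: 100.0% equal a whole number of the smallest step in their column within 0.1. Although the file's name says CPM, column totals lay between 15674554 and 18470626.

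Deposited values were multiplied by 1e6 over the mean column total (normalised CPM), and reads were recovered from the steps. Of the 17421 gene IDs, 17251 matched the BDGP6.54 annotation. Of the 170 that did not, 104 were tested under their ID. Among tested genes 17.9% overlap another gene on the same strand, whose reads may be shared. limma 3.58.1 with a trend was fitted on log2(normalised CPM + 1) over all 9 libraries by genotype, with 6 residual degrees of freedom and Benjamini-Hochberg adjustment over 9566 genes. ELAV/Hu genes were also tested by exact permutation. 40 gene lists were described by counts and medians, and 30 of their entries could not be matched. The members and lists were chosen with earlier results of these data known.

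Named by rule were elav, fne and Rbp9, the 15 largest rises and 15 largest falls, up to 5 members per list with the smallest p, all tested muscle, gut, visible marker and dosage genes, and genes within 50 kb of fne or elav. Any other gene was named after its values were seen. Tried as alternatives were other filters, pseudocounts of 0.25 and 5, the 6 libraries alone, robust eBayes, TMM, median of ratios and library total scaling, count tests on the recovered reads in DESeq2 1.42.0 and edgeR 4.0.16 (quasi-likelihood), the muscle level as a covariate, the replicate number as a block, and each library left out, as well as elav5 replicate 1 and elav5/fne replicate 3 together. The fit was tested on simulated data. The software was R 4.3.3 and Python 3.11.15 with scipy 1.17.1, pandas 2.3.3, matplotlib 3.10.9 and numpy 2.4.6.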

Additional observations from a re-analysis of the deposited data

How the results depend on the processing

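Over 23 alternative settings the number of genes called was 2216 to 3116, against 2940 (1778 higher, 1162 lower). With each library left out in turn it was 2216 (without elav5/fne replicate 2) to 3068 (without elav5 replicate 1). Genes called higher numbered 1085 in edgeR, where 1402 were lower, 1305 under TMM scaling, 1349 in DESeq2 (1567 lower) and 2134 when libraries were scaled to their totals (982 lower). edgeR gave 199 higher genes on chromosome X in place of 323, and with a mean deposited value of at least 160 there were 8 in place of 13 on chromosome 4, where 72 genes were tested. The cause was not tested, except that the higher minimum keeps fewer genes. fne stayed called in every setting, and elav and Rbp9 in none. Of 178 called genes named by rule 151 were called in every setting in which they could be fitted, 27 lost their call in 1 or more, and 0 changed direction. Replicate numbers did not pair the libraries: deviations of same-numbered elav5/fne and elav5 libraries correlated with r of -0.69, 0.18 and -0.32 over genes, while elav5/fne replicate 3 and elav5 replicate 1 gave 0.67. With the number as a replicate block 2342 genes were called, 1389 higher and 953 lower. Depth limits low genes, as 3 reads stand for up to 0.196 normalised CPM, and for a gene with no read in a group the log2 change depends on the pseudocount.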

Other observations

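Several further gene families were chosen after their values were seen, so their counts are descriptions, to be read beside the 18.6% of all tested genes that were higher and the 12.1% that were lower. Of 21 genes of the Dpr family, immunoglobulin surface proteins by which neurons recognise partners, 14 were lower in elav5/fne than in elav5, none was higher and 7 did not pass. Beside dpr21, dpr14 was at 113, 127 and 111 normalised CPM in elav5/fne, against 431, 538 and 513 in elav5 (log2 -2.07), and dpr7 at 51.6, 40.9 and 32.9 in elav5/fne, against 157, 182 and 199.6 in elav5 (log2 -2.09). Of the 11 DIP genes, which encode their binding partners and of which 3 stand on the guidance and adhesion list, 3 fell, 1 rose (2 without elav5/fne replicate 3) and 7 did not pass. DIP-eta rose, at 204, 201 and 136 in elav5/fne, against 75.8, 92.7 and 78.5 in elav5, and DIP-lambda fell, at 6.305, 7.69 and 4.57 in elav5/fne, against 18.1, 16.7 and 18.4 in elav5. All 4 laminin genes, which encode chains of the basement membrane, rose, but LanA lost its call in 15 settings, among them TMM scaling, edgeR, DESeq2 and each single library left out except elav5 replicate 1 and elav5 replicate 3. wb was at 63.7, 56.8 and 48.1 in elav5/fne, against 5.92, 4.77 and 5.43 in elav5 (log2 3.16), and LanB1 averaged 165 ± 9.95 in elav5/fne and 38.1 ± 18.6 in elav5, while LanA differed between elav5 libraries, at 67.3, 38.3 and 11.5. Of 6 tested ligands of the TGF-beta family 4 rose. gbb, the retrograde signal of synapses, was at 37.3, 32.01 and 34.7 in elav5/fne, against 3.47, 5.48 and 3.93 in elav5 (log2 2.77), mav at 56.7, 49.7 and 45.6 in elav5/fne, against 12.2, 8.68 and 7.79 in elav5, and myo at 106, 104.3 and 92.5 in elav5/fne, against 34.7, 35.1 and 30.8 in elav5. dpp rose too, while Actbeta and daw did not pass (1 of them fell under TMM scaling, in edgeR, in DESeq2 and without elav5 replicate 1). Of 7 Hedgehog pathway genes ptc and ci rose, cos fell and 4 did not pass, and cos lost its call without elav5/fne replicate 2 or elav5 replicate 2 or 3. ptc, the receptor that the pathway induces, was at 77.02, 82.3 and 64.8 in elav5/fne, against 11.4, 9.92 and 7.86 in elav5 (log2 2.83), and ci, its transcription factor, at 32.9, 33.95 and 32.9 in elav5/fne, against 8.17, 4.18 and 5.499 in elav5, while hh, the ligand, was at 4.45, 5.11 and 6.79 in elav5/fne, against 7.14, 7.703 and 6.35 in elav5.

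All 7 tested Bomanin genes, which encode short peptides under the Toll pathway, rose, but none was called in edgeR, 3 in DESeq2, 2 without elav5/fne replicate 2, 4 without elav5/fne replicate 3 or elav5 replicate 2, and 3 without elav5 replicate 3. BomS3 was at 31.8, 139.9 and 136 normalised CPM in elav5/fne, against 27.5, 3.66 and 0.524 in elav5, and BomS5 at 18.2, 113 and 68.2 in elav5/fne, against 16.9, 4.24 and 0.327 in elav5. Within elav5 replicate 1 was the highest in all 7, as it was for the gut and muscle lists. All 7 were called with the muscle level as a covariate, and without both elav5 replicate 1 and elav5/fne replicate 3. Beyond these fits, the part of the gut and muscle levels in this result was not tested.

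Of 87 genes tested on chromosome 4, 25 fell (28.7%) and 13 rose (14.9%), beside 11.9% lower over the 5 large chromosome arms, and their median log2 change was -0.12, against 0.16. Of 18 tRNA genes tested, 16 of them mitochondrial, 8 fell, beside 12.1% of all genes, and none rose. The number that fell was 3 without elav5/fne replicate 3 or elav5 replicate 3, and 4 without elav5/fne replicate 1 or elav5 replicate 1. It was 3 with the replicate block and 2 of 18 without both elav5 replicate 1 and elav5/fne replicate 3. mt:tRNA:Arg-TCG was at 86.8, 88.9 and 56.01 in elav5/fne, against 167, 131 and 213 in elav5, and averaged 46.5 ± 13.8 in Canton-S.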
